A study of Mus musculus with 4 samples.

Results

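Expression of the BCL2 family was examined in the stomachs of *c-Myc* transgenic mice through 10 genes, taken by name from the 46095 gene symbols of 1 count table. They are the pro-survival genes *Bcl2*, *Bcl2l1* and *Mcl1*, the effectors *Bax* and *Bak1*, and the BH3-only genes *Bcl2l11*, *Bad*, *Bid*, *Bik* and *Bmf*. Proteins of this family decide whether the outer mitochondrial membrane is opened, which releases cytochrome c and starts the caspase cascade of intrinsic apoptosis. Pro-survival members hold the effectors BAX and BAK in check, and BH3-only members, which respond to particular kinds of stress or damage, either neutralize the pro-survival members or activate the effectors directly. High MYC activity is known to sensitize cells to apoptosis along this route, and the balance among these proteins is one of the barriers that MYC-driven tumours meet.

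Gastric RNA was sequenced from 2 WT and 2 *Atp4b-cre; Myc OE* samples of C57BL/6 mice at 12 weeks of age; the series' design text speaks of triplicates, and 2 samples per genotype are used here. The *Atp4b-cre; Myc OE* mice carry a floxed *c-Myc* overexpression allele in the heterozygous state (*Myc fl/+*) together with Cre driven by the *Atp4b* promoter, so that *c-Myc* is switched on in the parietal cell lineage and not throughout the stomach. WT samples came from *Myc fl/fl* mice, which have the floxed allele on both chromosomes and no Cre. Read counts summed to 36152857 and 30260305 in WT replicates 1 and 2, and to 31350412 and 41463647 in transgenic replicates 1 and 2. The labels do not state that replicates are separate animals, so p-values measure only the spread between these samples, which may be technical in part; the WT samples differ in sex markers (below) and so are not repeats of 1 animal. The chi-square per degree of freedom between replicates, which is near 1 under counting noise alone, was 28.9 in the WT pair and 97.9 in the transgenic pair.

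Names and counts of the transgenic columns are out of register in the deposited table, and before any gene was read each count was therefore given, keeping the order of rows, to the name at its place once names are sorted by character code (capitals before lower case). None of the 10 members stands in the same row in both orders. The counts of *Bcl2*, *Bcl2l1* and *Bcl2l11* were moved by 1 row, those of *Bid*, *Bik* and *Bmf* by 1 row in the other direction, those of *Mcl1* by 2 rows, and those of *Bax*, *Bak1* and *Bad* by 111 rows. Over the 61 rows around each member, the correlation across genes between the mean log2 counts of the genotypes lay between 0.953 for *Mcl1* and 0.986 for *Bcl2l1* after the move, and between -0.005 and 0.206 before it. Placing the counts 1 to 3 rows away from the re-sorted position gave at most 0.542, in the rows around *Bax*. Genes are not independent replicates, so these correlations describe the match of rows only. Beside *Bax* the deposited table lists 439 and 379 transgenic counts, which belong to *BC029214*, and the *Bax* counts of 1807 and 2301 stand beside the name *BC065397*. All values below are those after re-sorting.

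Counts of the mouse *Myc* row were 1062 and 759 for WT and 735 and 1091 for the transgenic pair, or 31.7 and 27.2 against 21.7 and 24.4 normalized CPM. CPM is the count of a gene scaled to a common library size (counts in a library of 1000000) after TMM normalization, which corrects for differences in library composition. Both transgenic samples were below both WT samples, without passing the test (log2 fold change -0.35, standard error 0.14, edgeR adjusted p = 0.163). The transgene is described as human *c-Myc*, and whether its reads are counted in this row was not tested, so it does not check the genotype labels. *Xist*, transcribed from the inactive X chromosome of females, had 85, 17846, 113 and 201 counts in WT replicates 1 and 2 and transgenic replicates 1 and 2, and the Y-linked *Ddx3y* had 1861, 5, 1941 and 2623. WT replicate 2 thus carries the female pattern and the other 3 samples the male one, and values without that sample are given for the called members and pathway genes. All edgeR calls, including the marker calls below, were lost when either WT sample was left out, so this loss is not particular to the female sample.

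Of the 10 members, all of which passed the filter on low counts, 1 rose and 0 fell in *c-Myc* transgenic mice, at an adjusted p-value under 0.05 and a change of more than 1.5-fold. Over all 17643 tested genes, 10.7% were called in either direction, 5.65% higher and 5.08% lower, so the share of called members was close to that of all genes. The called member was *Bax*. At an unadjusted p-value under 0.05, edgeR gave 4 of the 10 members, *Bcl2l1*, *Bax*, *Bid* and *Bik*, where 6024 of all 17643 tested genes reached it, a share near that of the members. Both transgenic samples lay above both WT samples for 7 members, against 33.3% of all tested genes, and below them for 1, against 31.5%. The groups overlapped for *Bcl2* and *Bad*. The median log2 fold change of the members was 0.23, against 0.01 over all tested genes. When libraries were scaled by their size alone, the median of all genes moved to 0.23, the signs of *Bcl2* and *Bad* turned positive, and 7 members (*Mcl1*, *Bax*, *Bak1*, *Bcl2l11*, *Bid*, *Bik* and *Bmf*, without *Bcl2l1*) and 7086 of all genes had an unadjusted p-value under 0.05.

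**Figure D1:**
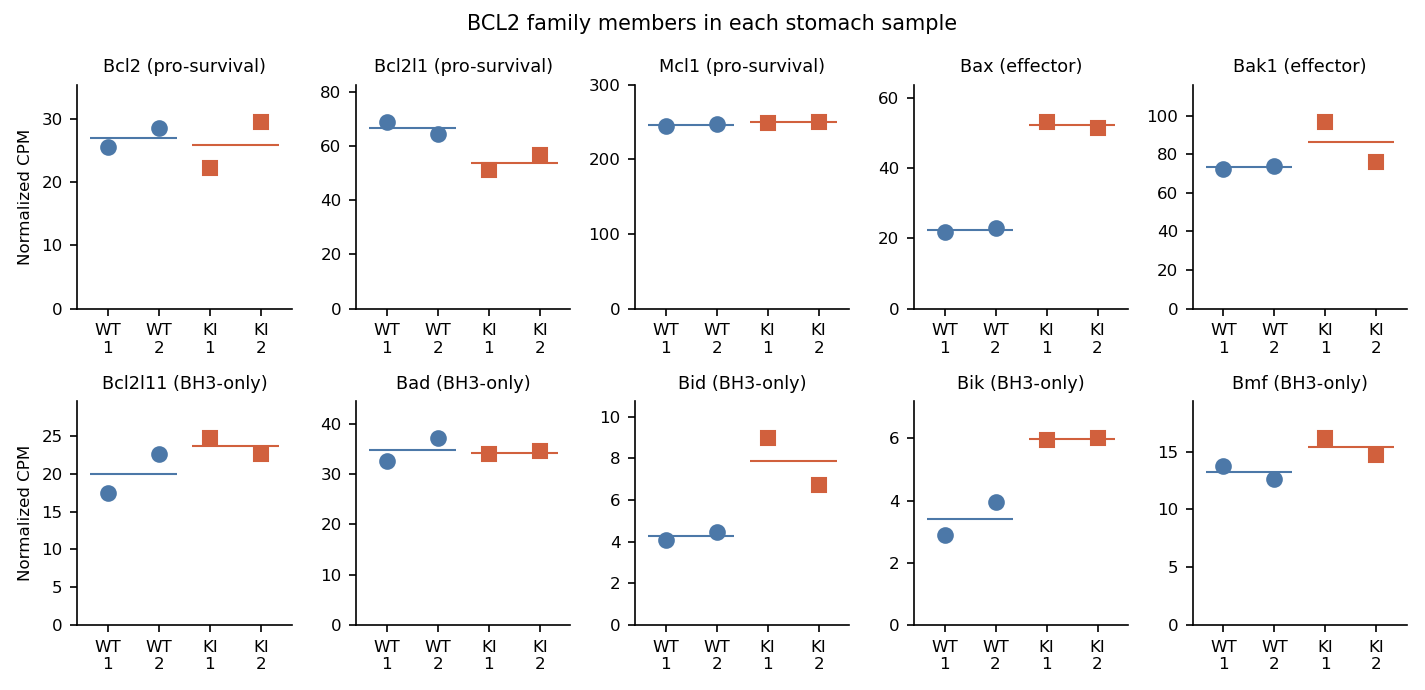
Normalized CPM of each BCL2 family member (vertical axes, each from 0) in the 2 WT (circles) and 2 transgenic samples (squares, KI), with lines at the group means. *Bax* stands at 22.0 and 22.9 in WT and at 53.3 and 51.5 in transgenic samples, while the 4 values of *Mcl1* lie between 244.2 and 250.1.

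Among the pro-survival genes, *Bcl2* (chr1:106538178-106714274, minus strand, coordinates of mm10 from GENCODE M21), the founding member of the family, had 25.5 and 28.6 normalized CPM in WT and 22.2 and 29.5 in transgenic samples. Transgenic replicate 1 was the lowest and transgenic replicate 2 the highest of the 4, so the groups overlapped. Its log2 fold change was -0.06 (standard error 0.18, 95% interval -0.55 to 0.42, edgeR adjusted p = 0.841), and it became 0.16 with library size, 0.019 without WT replicate 2 and 0.13 without transgenic replicate 1. No direction can be read for *Bcl2*. *Bcl2l1* (chr2:152780668-152831728, minus strand), which encodes BCL-XL, had 69.0 and 64.4 normalized CPM in WT and 51.1 and 56.6 in transgenic samples. It was the only member for which both transgenic samples lay below both WT samples. The log2 fold change of -0.31 (standard error 0.09, 95% interval -0.56 to -0.06) did not pass the adjusted threshold (edgeR adjusted p = 0.100) and was below 1.5-fold. With library size it shrank to -0.087 (adjusted p = 0.533). In a bulk tissue, fewer cells of a type that holds a transcript and less of that transcript per cell cannot be told apart. *Mcl1* (chr3:95658788-95663176, plus strand), a short-lived protein on which many epithelial cells depend, had 244.2 and 247.3 normalized CPM in WT and 248.8 and 250.1 in transgenic samples. The samples did not overlap, but the means differed by a log2 fold change of 0.02 (standard error 0.08, edgeR adjusted p = 0.867), and the 95% interval of -0.18 to 0.23 lies within 1.5-fold.

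The effectors form the pores in the outer mitochondrial membrane. *Bax* (chr7:45461697-45466898, minus strand), whose protein waits in the cytosol until it is activated, was counted 737 and 638 times in WT and 1807 and 2301 times in transgenic samples. These correspond to 22.0 and 22.9 normalized CPM in WT (22.4 ± 0.642, SD, n = 2) and to 53.3 and 51.5 in transgenic samples (52.4 ± 1.25, SD, n = 2). Each transgenic sample was above each WT sample, and the distance between the groups was many times the spread within either. *Bax* was 2.34-fold higher in *Atp4b-cre; Myc OE* mice (95% interval 1.97 to 2.77; log2 fold change 1.22, standard error 0.09, edgeR adjusted p = 0.0157). The size of the change held when any sample was left out, at log2 fold changes of 1.20 to 1.25. The call was lost without WT replicate 1 (1.20) and without WT replicate 2, the female sample (1.25), as were all other edgeR calls there. It was also lost with a replicate block (log2 fold change 1.22, edgeR adjusted p = 0.0541). Over the alternatives on the re-sorted table the adjusted p-value of *Bax* ranged from 6.75e-15 with DESeq2 to 0.232. Of the 1576 exon bases of *Bax*, 192 (12.2%) are shared on the same strand with the predicted gene *Gm45808*. That gene has no row in the count table, and whether its reads are counted with *Bax* was not tested.

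*Bak1* (chr17:27019810-27029009, minus strand), whose protein resides in the mitochondrial membrane, had 72.3 and 74.0 normalized CPM in WT and 96.8 and 76.2 in transgenic samples. Transgenic replicate 1 was well above the other 3 samples, and transgenic replicate 2 lay just above WT. The log2 fold change was 0.24 (standard error 0.14, 95% interval -0.13 to 0.61, edgeR adjusted p = 0.290), and it was 0.06 without transgenic replicate 1 and 0.40 without transgenic replicate 2. The difference between the changes of *Bax* and *Bak1* was not tested.

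BH3-only proteins carry the damage and stress signals. *Bid* (chr6:120891930-120916853, minus strand), which caspase-8 cleaves to link death receptors to mitochondria, was counted 137 and 124 times in WT and 304 and 301 times in transgenic samples, or 4.08 and 4.45 against 8.96 and 6.74 normalized CPM. Both transgenic samples were above both WT samples, and they differed more from each other than the WT pair did. *Bid* had a log2 fold change of 0.88 (standard error 0.25, 95% interval 0.21 to 1.55) and did not pass in edgeR (adjusted p = 0.0888). It passed with DESeq2 (0.87, adjusted p = 0.0335) and with library size (1.10, adjusted p = 0.0456), over a range of adjusted p-values from 0.0335 to 0.332. Of its 3550 exon bases, 628 (17.7%) lie opposite exons of *Bcl2l13*, and the sources used here do not state whether strand was used in counting, so reads from that stretch cannot be assigned. *Bcl2l13* itself had 24.0, 30.4, 19.0 and 23.7 normalized CPM in WT replicates 1 and 2 and transgenic replicates 1 and 2 (edgeR adjusted p = 0.277), and its part in the *Bid* counts was not tested.

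*Bik* (chr15:83526862-83544634, plus strand), whose protein sits largely at the endoplasmic reticulum, was counted 97 and 110 times in WT and 202 and 268 times in transgenic samples, or 2.89 and 3.94 against 5.96 and 6.00 normalized CPM. The transgenic samples stood together above a more widely spaced WT pair. Its log2 fold change of 0.81 (standard error 0.27, 95% interval 0.08 to 1.53) did not pass (edgeR adjusted p = 0.120, and 0.0799 with DESeq2). *Bid* and *Bik* had the fewest counts of the members, and the 95% intervals of their changes were wide, from 1.16-fold to 2.92-fold higher for *Bid* and from 1.06-fold to 2.90-fold higher for *Bik*.

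*Bcl2l11* (chr2:128126038-128162547, plus strand), which encodes BIM, a binder of all pro-survival members, had 17.4 and 22.5 normalized CPM in WT and 24.7 and 22.6 in transgenic samples. WT replicate 2 and transgenic replicate 2 were nearly equal, and WT replicate 1 was the low sample. *Bmf* (chr2:118528757-118549687, minus strand), a sensor of lost cell attachment, had 13.8 and 12.7 normalized CPM in WT and 16.2 and 14.7 in transgenic samples. For *Bmf* the transgenic samples were higher by a margin close to the spread within groups. Neither passed, with log2 fold changes of 0.24 for *Bcl2l11* (standard error 0.17, edgeR adjusted p = 0.390) and 0.22 for *Bmf* (standard error 0.15, edgeR adjusted p = 0.349). The value of *Bcl2l11* depended on single samples, at 0.067 without WT replicate 1 and 0.44 without WT replicate 2, and was 0.47 with library size. *Bad* (chr19:6941861-6951899, plus strand), which growth factor signalling through AKT holds inactive by phosphorylation, had 32.6 and 37.1 normalized CPM in WT and 33.9 and 34.5 in transgenic samples. Both transgenic samples lay between the WT samples. The log2 fold change of *Bad* was -0.03 (standard error 0.11, 95% interval -0.32 to 0.27, edgeR adjusted p = 0.890), and it was 0.20 with library size and 0.067 without WT replicate 2. Exon overlaps on the opposite strand also touch *Bad* (20.5% of its exon bases, with *Gpr137*), *Bak1* (25.5%, with *Ggnbp1*) and *Bcl2* (6.09%, with *D630008O14Rik*).

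**Figure D2:**
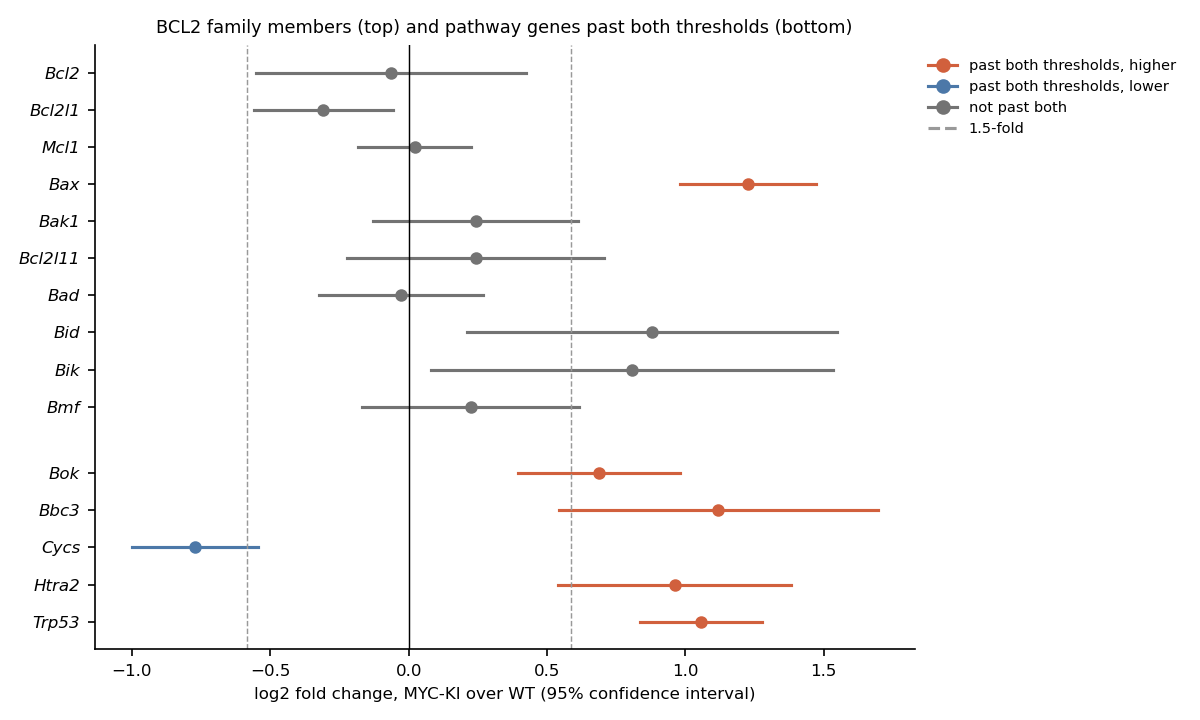
Log2 fold change of MYC-KI (*Atp4b-cre; Myc OE*) over WT (horizontal axis) with its 95% confidence interval from edgeR, for the 10 members and for the pathway genes past both thresholds, 2 samples per group. Dashed lines mark a 1.5-fold change; among the members the interval of *Bax* alone lies wholly beyond it, and when libraries are scaled by their size alone the points of *Bcl2* and *Bad* move to the right of 0.

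Levels of different genes were compared per kilobase of exon in GENCODE M21, since longer transcripts gather more reads. In WT, *Mcl1* led with 71.9 ± 0.641 normalized CPM per kb (SD, n = 2), followed by *Bak1* with 30.4 ± 0.517. *Bcl2l1* (14.6 ± 0.708), *Bax* (14.2 ± 0.408) and *Bad* (13.6 ± 1.25) formed a middle group whose levels per kb overlapped. *Bcl2* (2.95 ± 0.239), *Bmf* (2.51 ± 0.151), *Bcl2l11* (2.49 ± 0.451) and *Bik* (2.15 ± 0.468) were lower, with *Bmf*, *Bcl2l11* and *Bik* overlapping and *Bcl2l11* also overlapping *Bcl2*, and *Bid* was lowest at 1.20 ± 0.0723. In transgenic samples the level of *Bax* per kb, 33.3 ± 0.794, overlapped that of *Bak1*, 35.9 ± 6.05, and both stood above *Bad* (13.4 ± 0.166) and *Bcl2l1* (11.8 ± 0.848). *Bax* thereby moved from the middle group to the level of *Bak1*, below *Mcl1* (73.0 ± 0.269). At the low end *Bik* reached 3.76 ± 0.0196 per kb and *Bid* 2.21 ± 0.443, beside *Bcl2l11* (2.94 ± 0.184), *Bmf* (2.94 ± 0.195) and *Bcl2* (2.83 ± 0.566). The annotation that the authors counted on is not given in the sources used here, and another set of exons would shift these levels per kb but not the ratio between samples.

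Ratios of counts within a sample do not depend on the scaling of libraries. They were not divided by exon length, so they compare samples and do not rank the genes of a ratio against each other. Per kb, *Bax* was above *Bcl2* already in WT (14.2 against 2.95) and near *Bcl2l1* (14.6). No ratio to *Mcl1*, the most abundant pro-survival member, is given. The ratio of *Bax* to *Bcl2* counts was 0.862 and 0.801 in WT and 2.40 and 1.74 in transgenic samples. The ratio of *Bax* to *Bcl2l1* counts was 0.318 and 0.355 in WT and 1.04 and 0.910 in transgenic samples. Both ratios were higher in each transgenic sample than in either WT sample. *Bcl2l11* to *Bcl2l1* gave 0.252 and 0.350 in WT and 0.483 and 0.399 in transgenic samples, again without overlap but with a smaller gap. These ratios describe RNA of the whole tissue and were not tested, and the members of a ratio need not be expressed in the same cells.

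Among 16 other genes of the family, 12 were tested. Of these, 2 were called higher and 0 lower, where 5.65% and 5.08% of all tested genes were. *Bok*, an effector-like relative of *Bax* and *Bak1*, had 43.5 and 51.3 normalized CPM in WT and 75.1 and 77.6 in transgenic samples. *Bbc3*, which encodes the BH3-only protein PUMA, had 4.35 and 5.48 in WT and 10.4 and 11.0 in transgenic samples. For both genes the transgenic pair lay close together and above WT. The log2 fold changes were 0.69 for *Bok* (standard error 0.11, edgeR adjusted p = 0.0337) and 1.12 for *Bbc3* (standard error 0.21, edgeR adjusted p = 0.0452). Both calls stood near the threshold. *Bok* was not called without WT replicate 1 (0.57, adjusted p = 0.202), WT replicate 2 (0.81, adjusted p = 0.232) or transgenic replicate 1 (0.71, adjusted p = 0.0520). *Bbc3* was not called without WT replicate 1 (0.96, adjusted p = 0.230), WT replicate 2 (1.29, adjusted p = 0.238), transgenic replicate 1 (1.16, adjusted p = 0.0720) or transgenic replicate 2 (1.08, adjusted p = 0.0705). The most abundant of the 16 by mean CPM over the 4 samples, *Bcl2l2*, which encodes the pro-survival protein BCL-W, had 79.4 and 86.6 in WT and 86.5 and 86.1 in transgenic samples, and the groups overlapped. *Bnip3*, a mitochondrial BH3 protein with roles in mitophagy that was named after its values were seen, had 56.1 and 58.3 in WT and 18.8 and 36.9 in transgenic samples and was called lower by DESeq2 but not by edgeR (log2 fold change -1.04, standard error 0.34, edgeR adjusted p = 0.115). *Bcl2a1a*, *Bcl2a1b* and *Bcl2a1d* share 69% to 79.5% of their 50-base stretches with other transcripts, and their counts of 2 to 40 are uncertain. *Bcl2a1c* shares 10.4% and had 0 counts in all 4 samples.

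Downstream of the mitochondrial pore, 1 of 10 genes for mitochondrial release and the apoptosome was called higher and 1 lower. The shares of all tested genes were 5.65% and 5.08%. *Htra2*, a protease that is released with cytochrome c and degrades inhibitors of apoptosis, had 16.4 and 14.2 normalized CPM in WT and 32.3 and 27.2 in transgenic samples. *Cycs*, which encodes somatic cytochrome c itself, had 52.9 and 55.3 in WT and 32.0 and 31.2 in transgenic samples. *Htra2* and *Cycs* were therefore separated by genotype in opposite directions. The log2 fold change of *Htra2* was 0.96 (standard error 0.16, edgeR adjusted p = 0.0350) and that of *Cycs* -0.77 (standard error 0.08, edgeR adjusted p = 0.0212). Scaled by library size alone, *Cycs* was at -0.55, under 1.5-fold. Without WT replicate 1 neither was called (1.07, adjusted p = 0.205, for *Htra2* and -0.81, adjusted p = 0.196, for *Cycs*), nor without WT replicate 2 (0.86, adjusted p = 0.246, and -0.74, adjusted p = 0.232). Without transgenic replicate 1, *Htra2* was at 0.83 (adjusted p = 0.0590). *Cycs* also shares 25.9% of its 50-base stretches with pseudogenes such as *Gm10053*, and 43.7% of the exon bases of *Htra2* overlap the opposite-strand genes *Aup1* and *Loxl3*. *Aup1*, which shares the larger part of those bases, had 98.0 and 100.9 normalized CPM in WT and 136.4 and 124.6 in transgenic samples, several times the level of *Htra2* and higher in the same direction (log2 fold change 0.39, edgeR adjusted p = 0.0566). *Loxl3* had 5.96 and 5.52 in WT and 3.33 and 3.72 in transgenic samples, lower (-0.70, edgeR adjusted p = 0.1195). The part of either in the *Htra2* counts was not tested. The most abundant gene of this list by CPM was *Vdac2*, a channel of the outer membrane, at 442.8 and 449.4 in WT and 433.8 and 414.1 in transgenic samples (edgeR adjusted p = 0.584).

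The list of 10 genes for executioner caspases and inhibitors also holds *Dffb*, a DNase activated by caspases, and its inhibitor *Dffa*. In this list edgeR called 0 genes, with 5 at an unadjusted p-value under 0.05 and 1, *Birc5*, called higher by DESeq2. That unadjusted p-value was reached in edgeR by 6024 of all 17643 tested genes. Of the 8 tested genes of the death receptor arm edgeR called 0, with 2 at an unadjusted p-value under 0.05 and 1, *Tnfrsf10b*, called higher by DESeq2. The most abundant genes of the 2 lists by CPM were *Birc6*, a large inhibitor of caspases, at 238.1, 264.8, 225.2 and 225.1 in WT replicates 1 and 2 and transgenic replicates 1 and 2, and *Tnfrsf1a*, a receptor for TNF, at 110.1, 111.5, 116.6 and 105.0. Of 13 regulators of the members, 1 was called higher and 0 lower, with 5 at an unadjusted p-value under 0.05 in edgeR. *Dynll2* had 274.2 and 257.7 normalized CPM in WT and 181.2 and 188.5 in transgenic samples. It passed the adjusted threshold but not the fold threshold (log2 fold change -0.52, edgeR adjusted p = 0.0340). *Trp53*, which encodes the transcription factor p53, was counted 1167 and 939 times in WT and 2479 and 3093 times in transgenic samples. These counts correspond to 34.8 and 33.7 against 73.1 and 69.2 normalized CPM. As with *Bax*, the 2 groups were far apart and each was narrow. *Trp53* was 2.08-fold higher (log2 fold change 1.06, standard error 0.08, edgeR adjusted p = 0.0168), and the call was lost without WT replicate 1 (1.08, adjusted p = 0.196) or WT replicate 2 (1.03, adjusted p = 0.232). The most abundant regulator by CPM was *Ywhaz*, a 14-3-3 protein that binds phosphorylated BAD, at 627.9 and 483.9 in WT and 540.8 and 627.8 in transgenic samples. Over the 58 other genes of the pathway, 53 were tested, 4 were called higher and 1 lower (9.43%), and the median log2 fold change was -0.04. With library size, 7 were called higher and 0 lower. With a replicate block, 0 members and 0 of these genes were called, with *Bax* and *Trp53* at an adjusted p-value of 0.0541, *Cycs* at 0.0620, *Htra2* at 0.0664, *Bok* at 0.0683 and *Bbc3* at 0.0897.

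The sequences before the starts of *Bax* and *Bbc3* are shown because both genes were called higher and their promoters hold the letters CACGTG, the E-box that MYC and MAX are known to bind. RefSeq promoter windows on GRCm38.p6, from 250 bases before to 50 bases after a start, were matched for 9 of the 10 members, with 15 windows in all. The motif, which reads the same on both strands, was found in 1 of these windows, that of *Bax*, where it begins at positions -9 and 36 from the start. It was present in 2349 of all 32851 windows (7.15%). Among the 5 called genes of the pathway, it was found for *Bbc3*, in 1 of 3 windows at position -64, and for *Trp53*, at position 11, while *Htra2* had no matched window. Over the 44 of 58 other genes of the pathway with a window it was in 4 of 52 windows (7.69%), near the share of all windows, the other 2 being those of *Bnip3* (position -108) and *Fas* (position -110), which edgeR did not call. A match is a description of the letters and does not show binding, and nothing follows from its absence in the other windows. The 250 bases before the start are given for *Bax* (chr7:45466899-45467148, minus strand) and *Bbc3* (chr7:16310181-16310430, plus strand), 5′ to 3′ with the E-box in capitals.
Bax: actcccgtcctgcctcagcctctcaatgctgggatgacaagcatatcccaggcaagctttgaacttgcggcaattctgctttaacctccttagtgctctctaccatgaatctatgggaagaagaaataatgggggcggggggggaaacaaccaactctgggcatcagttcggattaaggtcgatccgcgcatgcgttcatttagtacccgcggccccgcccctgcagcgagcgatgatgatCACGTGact
Bbc3: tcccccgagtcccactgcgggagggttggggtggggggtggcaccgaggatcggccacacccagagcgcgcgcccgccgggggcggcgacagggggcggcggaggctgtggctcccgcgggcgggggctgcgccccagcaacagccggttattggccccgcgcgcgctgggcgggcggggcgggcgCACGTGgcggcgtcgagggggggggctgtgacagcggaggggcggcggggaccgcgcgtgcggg

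Cell type markers moved with genotype beside these genes. All 10 parietal cell markers were called lower, with a summed level of 11735 and 11888 normalized CPM in WT and 468.0 and 547.6 in transgenic samples, and *Atp4a*, a proton pump subunit and the most abundant of them, still had 4696 and 8359 counts in the transgenic pair. Of 7 tested chief cell markers, 5 were called lower, and their sum, mostly *Pgc*, was 85000 and 80631 in WT against 1200 and 1519 in transgenic samples. Surface mucous cell markers, led by *Gkn2*, had 5 of 6 called lower, with sums of 50814 and 60610 against 17486 and 20464. The other marker, *Gkn3*, is also in the mucous neck and SPEM list below. It had 2079 and 2649 in WT and 5803 and 2035 in transgenic samples, and the groups overlapped. The tissue thus shows stomach markers in every sample, at much lower levels in *Atp4b-cre; Myc OE* mice for most parietal and chief cell markers; the pepsinogen gene *Pga5*, at 34.3 and 27.0 in WT and 38.2 and 23.7 in transgenic samples, overlapped. Mast cell markers had 4 of 6 called higher, with sums of 70.2 and 93.0 in WT and 229.2 and 238.1 in transgenic samples; the most abundant by mean CPM over the 4 samples, *Kit*, which other cells also express, was not among the 4. Of 6 proliferating cell markers 1 was called higher, with sums of 353.9 and 333.1 against 523.9 and 461.1, and *Mki67* was the most abundant. All 6 were above WT in both transgenic samples with an unadjusted p-value under 0.05 in edgeR. Of all tested genes, 33.3% were above WT in both transgenic samples, and 6024 of 17643 reached that p-value in either direction. DESeq2 called 3 of the 6 higher, *Ccnb1*, *Cdk1* and *Birc5*. Leukocyte markers, led by *Lyz2*, had 4 of 11 tested called lower, with sums of 251.2 and 269.5 against 106.1 and 91.9. The 4 were *Lyz2*, *Adgre1*, *Itgam* and *Csf1r*; of the other 7, *Ptprc* (log2 fold change -0.04, standard error 0.32), *Cd3e*, *Cd8a* and *Cd79a* overlapped between genotypes, *Cd4* and *Ms4a1* were below WT in both transgenic samples, and *S100a8* was above.

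In 3 other lists single samples stood apart. Mucous neck and SPEM markers, led by *Tff2*, had 1 of 6 called higher, with sums of 12260 and 15186 in WT and 26134 and 11118 in transgenic samples, where transgenic replicate 1 was the highest. Forestomach squamous markers, led by *Krt13*, had 0 of 8 called by edgeR or DESeq2 and 0 at an unadjusted p-value under 0.05, and their sums of 2650 and 1513 in WT and 877.1 and 4432 in transgenic samples were lowest in transgenic replicate 1 and highest in transgenic replicate 2. Smooth muscle markers, led by *Myh11*, had 0 of 6 called by edgeR or DESeq2 and 0 at an unadjusted p-value under 0.05, with sums of 7640 and 4827 in WT and 2479 and 5270 in transgenic samples, again lowest in transgenic replicate 1. Sums of the pancreatic acinar markers were separated by genotype instead, at 260.1 and 221.0 against 128.4 and 151.2, and were mostly *Cela1*. Only 4 of the 9 listed markers were tested, and 3 were called lower, *Cela1*, *Cela2a* and *Amy2b*. The calls of *Cela2a* and *Amy2b* rest on few counts. Listed by sample, WT first, these were 20, 18, 0, 0 for *Cela2a* and 34, 32, 1, 0 for *Amy2b*. *Pnlip*, which the filter on low counts removed, went the other way (1, 0, 18, 7). *Prss2* and *Cpa1* had 0 counts in all 4 samples. The part of these cell types in the levels of *Bax*, *Bid*, *Bik*, *Bcl2l1* and the called pathway genes was not tested.

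**Figure D3:**
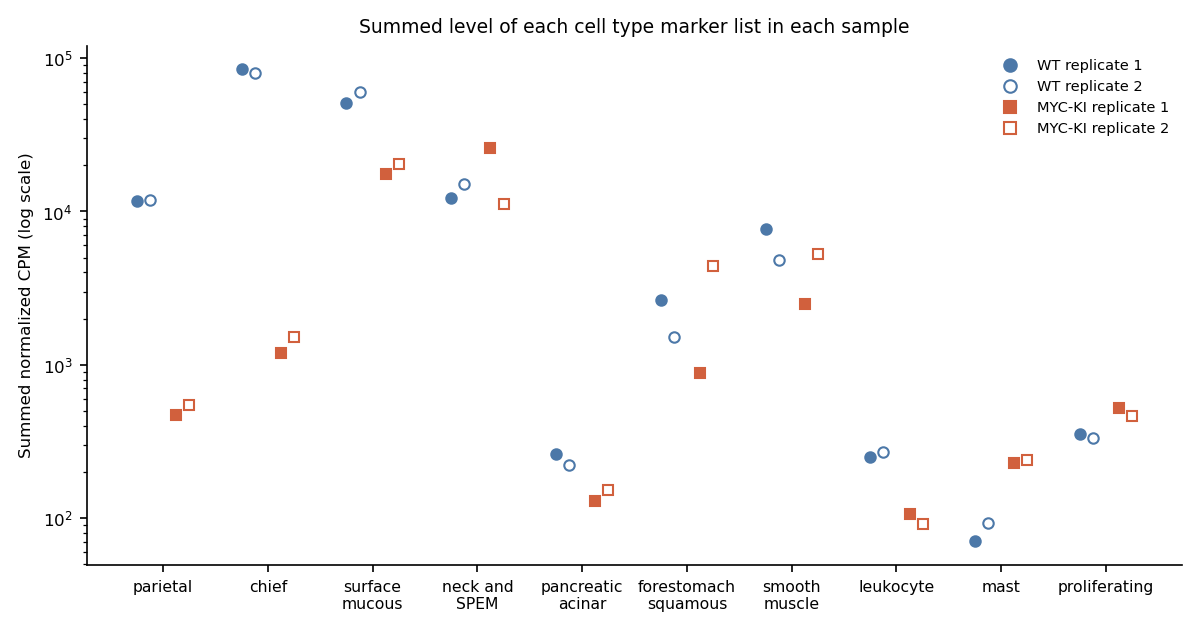
Summed normalized CPM (vertical axis, log scale) of each marker list in WT (circles) and transgenic samples (squares), with replicate 1 filled and replicate 2 open. Parietal markers sum to 11735 and 11888 in WT and to 468.0 and 547.6 in transgenic samples. As a ratio, the 2 transgenic samples differ most from each other in the forestomach squamous list, at 877.1 and 4432.

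As deposited, without re-sorting, 9 of the 10 members passed the thresholds, where 84.1% of 22083 tested genes did. In that order *Bax* would read as lower (log2 fold change -1.01) and *Bad* as nearly absent, with 8 and 5 counts, because the counts listed beside these names belong to other genes.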

How the data were processed

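The authors deposited 1 table of raw read counts per gene symbol, not normalized, for 4 stomach samples; the submitters' processing notes name HISAT2 and the build mm10, and the counting tool, strand setting and annotation are not given in the sources used here. Counts of the transgenic columns were matched, without changing their order, to names sorted by character code. Genes were tested in R 4.3.3 with edgeR 4.0.16 (TMM, filterByExpr on genotype, glmQLFit, glmQLFTest, Benjamini-Hochberg adjustment over 17643 genes), and the study's thresholds of 0.05 on the adjusted p-value and 1.5-fold were kept. Standard errors were computed as the log2 fold change, without its sign, over the root of F. The alternatives were the deposited order, DESeq2 1.42.0 and its size factors, library size, filters on low counts, fold thresholds, a replicate block and leaving out each sample. The fits were tested on simulated counts, where more unchanged genes were called than the adjusted threshold allows, in DESeq2 more than in edgeR. Text names the 10 members and, of each list of the pathway, the genes past both thresholds and the most abundant; other names are given for overlaps, cell type markers, calls by DESeq2 alone, promoter motifs or as chosen after their values were seen. Members and lists were chosen with earlier results of these data known. With 30260305 to 41463647 counts per sample, intervals of genes with few counts are wide.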

Additional observations from a re-analysis of the deposited data

How the results depend on the processing

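Over 10 alternatives on the re-sorted table, 95 of 100 log2 fold changes of the members kept their direction, and those of *Bax* lay between 1.20 and 1.45. The 5 that reversed were *Bcl2* with library size (0.16), without WT replicate 2 (0.019) and without transgenic replicate 1 (0.13, in a range of -0.28 to 0.13 over the samples left out), and *Bad* with library size (0.20) and without WT replicate 2 (0.067, in a range of -0.12 to 0.067); none of the 5 passed the test. The called pathway genes kept their direction in 50 of 50 values and lost the call in 20. In the deposited order the counts belong to other names, which gave 18580 called genes, 9 called members and reversed values for *Mcl1* (-2.05), *Bax* (-1.01), *Bak1* (-1.18), *Bcl2l11* (-8.14), *Bok* (-1.66) and *Bbc3* (-2.92). Library size gave 3011 called genes and 2 called members, *Bax* and *Bid*, with 75.5% of calls higher against 52.6% with TMM normalization. DESeq2 gave 3234 genes and the same 2 members, and a threshold of 2-fold gave 1113 genes. Leaving out each sample gave 0 to 2470 genes and 0 to 1 members, with 0 in edgeR without WT replicate 1 or 2. There the spread comes from the transgenic pair alone, because the lone sample is assumed to vary like the other group, and *Bax* had an unadjusted p-value under 0.05 both times.

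The fit with the replicate number as a replicate block called 114 genes, 0 members and 0 genes of the pathway, with 2 members, *Bax* and *Bid*, at an unadjusted p-value under 0.05 in edgeR, where 5178 of all 17643 genes were. Deviations of same-numbered samples correlated at 0.067 across genes, and the samples share only a number. That block leaves fewer degrees of freedom. With 2 samples per genotype, the 95% intervals of *Bid* and *Bik*, at 97 to 304 counts, were wide.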
